A study of Mus musculus with 20 samples.

Results

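The genes described here encode the recombination enzymes and the pre-B cell receptor of early B lymphocytes, together with the receptor that carries the interleukin 7 signal to these cells. Rag1, Rag2, Dntt, Vpreb1, Vpreb2, Vpreb3, Igll1, Il7r, Cd79a and Cd79b were picked by name as genes of the first stages of B cell development. They are 10 of the 55486 genes in the count tables, and each was found in both tissues. RNA was sequenced from bone marrow and kidney of C57BL/6 mice in 20 libraries, with 5 for each treatment in each tissue. By the study's methods, the animals were of both sexes and 10 weeks of age when dosing began. They were given oxaliplatin by intraperitoneal injection at 10 mg/kg in 5% dextrose, or the 5% dextrose vehicle without drug, over 8 weeks. Marrow was spun out of tibia and femur 6 days after the final dose. Mice are named by treatment and replicate number, and a number shared by a vehicle and a treated library does not mark the same animal. Whether a marrow and a kidney library of the same treatment and number came from the same animal is not given in the sources used here.

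B lymphocytes are made in the marrow, where a progenitor first cuts and rejoins its heavy chain gene. RAG1 and RAG2 together make the cuts, and the enzyme encoded by Dntt adds bases at the joints. A finished heavy chain is then tested in the pre-B receptor, in which VPREB and the lambda 5 protein of Igll1 stand in for the light chain that has not yet been made, and CD79A and CD79B carry the signal inward. Interleukin 7, received through the chain encoded by Il7r, keeps these cells alive and dividing. The recombination and surrogate light chain genes are switched off in mature B cells, whereas Cd79a and Cd79b stay on through the lineage and Il7r is also used by T cells and innate lymphoid cells.

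Promoters of 4 genes are shown with the 300 bases around their start, because they include partners of 1 complex (Vpreb1 and Igll1, neighbours on chromosome 16), a recombination enzyme (Rag1) and a gene of the whole lineage (Cd79a). The windows are from RefSeq on GRCm38.p6 and run from 250 bases before to 50 bases after the annotated start, at chr16:16869206-16869505 (minus strand) for Vpreb1, chr16:16863936-16864235 (minus strand) for Igll1, chr2:101649483-101649782 (minus strand) for Rag1 and chr7:24897247-24897546 (plus strand) for Cd79a. Capitals mark the E-box CAGGTG, a sequence that E proteins such as E2A can bind, or its reverse complement.
Vpreb1: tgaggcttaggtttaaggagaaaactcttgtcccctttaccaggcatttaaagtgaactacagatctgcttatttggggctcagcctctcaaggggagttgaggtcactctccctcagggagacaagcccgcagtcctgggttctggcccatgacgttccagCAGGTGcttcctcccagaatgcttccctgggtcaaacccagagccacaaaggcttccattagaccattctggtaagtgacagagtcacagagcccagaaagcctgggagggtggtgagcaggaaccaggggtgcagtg
Igll1: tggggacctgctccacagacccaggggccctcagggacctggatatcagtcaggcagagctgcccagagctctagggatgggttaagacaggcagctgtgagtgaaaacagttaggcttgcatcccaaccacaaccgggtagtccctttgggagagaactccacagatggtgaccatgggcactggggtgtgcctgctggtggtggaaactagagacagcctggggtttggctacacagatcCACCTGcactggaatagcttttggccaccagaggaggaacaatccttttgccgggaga
Rag1: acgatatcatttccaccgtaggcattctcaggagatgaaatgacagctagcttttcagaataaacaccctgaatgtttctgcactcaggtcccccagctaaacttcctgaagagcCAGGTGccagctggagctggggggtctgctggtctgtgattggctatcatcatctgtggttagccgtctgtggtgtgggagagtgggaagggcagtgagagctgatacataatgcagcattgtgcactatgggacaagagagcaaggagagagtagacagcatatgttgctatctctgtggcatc
Cd79a: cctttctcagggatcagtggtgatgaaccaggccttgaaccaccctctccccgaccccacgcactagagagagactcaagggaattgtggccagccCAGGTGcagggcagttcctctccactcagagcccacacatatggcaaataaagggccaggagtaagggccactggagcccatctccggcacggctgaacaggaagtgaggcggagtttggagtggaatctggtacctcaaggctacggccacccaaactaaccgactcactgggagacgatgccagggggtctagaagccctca

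Of the 10 genes, 9 had such a window, Cd79b being the exception. CAGGTG, read on both strands, was present in 5 of the 9 (Rag1, Vpreb1, Vpreb2, Igll1 and Cd79a), against 20.2% of all 32851 promoter windows. The sites of Vpreb1 and Vpreb2 lie in nearly identical sequence, so the 5 are not all separate cases. The looser form CANNTG, which includes CAGGTG, was in all 9 windows and in 72.3% of all promoters. IKAROS's TGGGAA was in Rag1 and Vpreb2 (25.6% of all promoters), and the STAT motif TTCNNNGAA was in Il7r (8.3%). The EBF motif (0.9% of all promoters) and the TATA box TATAAA (13.6%) were each in 0 of the 9 windows. The E-box occurred both in genes that were low in each treated marrow, such as Cd79a, and in genes that were not, such as Vpreb1. These matches describe letters and do not mark bound sites.

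Vpreb1 and Vpreb2 are near copies, which bears on their counts. Their coding sequences, each of 426 bases, were 97.9% identical in the GENCODE M21 transcripts, with 9 differing bases and a longest shared run of 196 bases. The 60 coding bases with the most differences, at chr16:16868638-16868697 (minus strand) for Vpreb1 and chr16:17980979-17981038 (plus strand) for Vpreb2, hold 5 of these, shown in capitals.
Vpreb1: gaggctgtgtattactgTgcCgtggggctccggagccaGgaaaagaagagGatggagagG
Vpreb2: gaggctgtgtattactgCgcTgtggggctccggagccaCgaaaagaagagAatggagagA
The methods describe counting of reads that aligned to 1 place only, so reads inside the shared runs could be lost from both genes, and the split between Vpreb1 and Vpreb2 is uncertain.

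Total counts per library ranged from 30660153 to 41140527 in marrow and from 24393007 to 30925430 in kidney, and the treated marrows of mice 3 and 4 were the deepest, at 41140527 and 40472111. Levels are given as CPM (counts scaled to a common library size with TMM factors), and 3 counts, taken as the floor, equal 0.0668 to 0.0975 CPM in marrow. Marrow markers such as Mpo, Elane and Ngp were present in all 10 marrow libraries (summed level of the 6 marrow identity genes 5157 to 10447 CPM, against 7.17 to 11.7 CPM in kidney). The Y-linked genes Ddx3y, Eif2s3y, Kdm5d and Uty lay between 15.2 and 57.6 CPM in all 20 libraries, and Xist never exceeded 2.88 CPM. All 20 libraries thus looked male by these genes, although both sexes are named in the methods. The treated marrows of mice 3 and 4 also stood apart in the neutrophil list (10 genes), with summed levels of 10327 and 11968 CPM against 21799 to 27373 CPM in treated mice 1, 2 and 5 and 19580 to 23951 CPM with vehicle, and its part in the results for these mice was not tested. In bulk marrow, fewer cells of a type and less RNA per cell cannot be told apart.

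The comparison of oxaliplatin with vehicle in bone marrow asked which of the early B cell genes changed. All 10 genes had enough counts to be tested. Of these, 6 were called lower in edgeR (adjusted p under 0.05 and a change beyond 1.5-fold) and 0 higher, beside 11.8% of the 22363 genes tested that were called lower, 11.6% called higher and 23.3% called either way. The genes called lower were Rag1, Rag2, Vpreb3, Il7r, Cd79a and Cd79b. For the same 6 genes each treated marrow lay below each vehicle marrow, against 13.5% of all genes tested. Dntt, Vpreb1, Vpreb2 and Igll1 were not called, and in each of them 1 or 2 treated mice had levels inside the vehicle range.

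**Figure D1:**
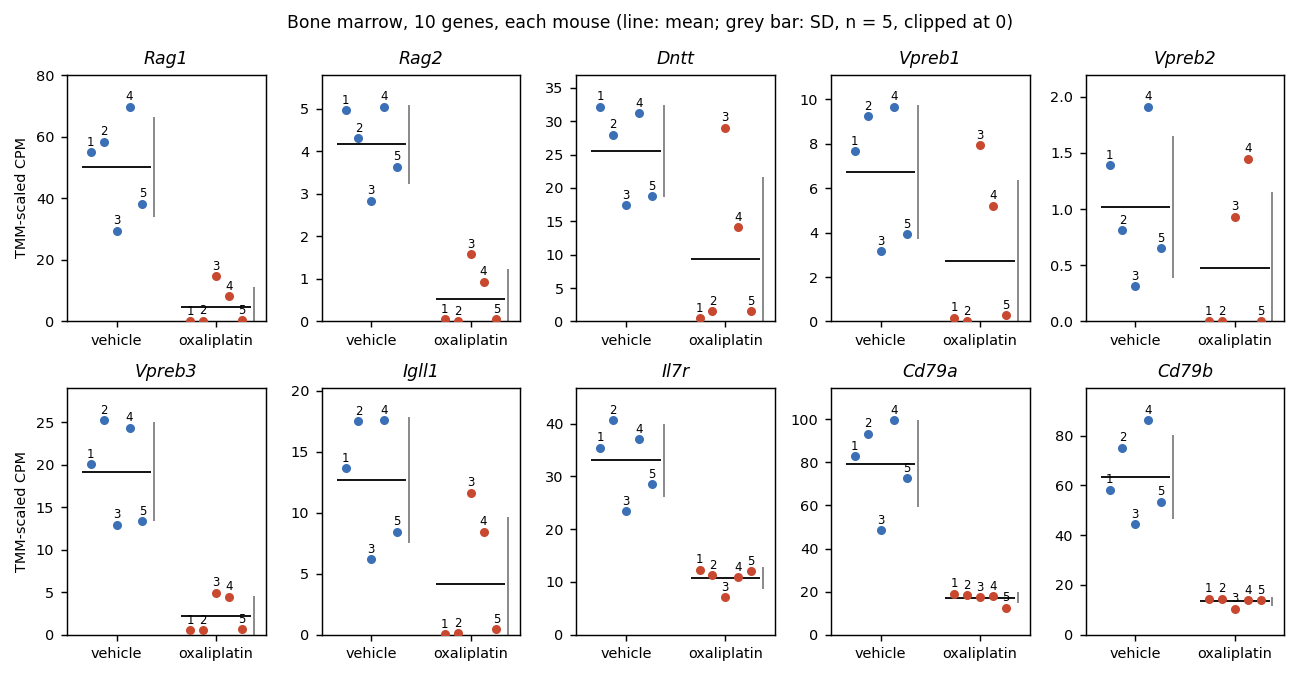
TMM-scaled CPM (y axis, from 0, a scale per gene) of each gene in the 5 vehicle and 5 oxaliplatin marrows, numbered by mouse, with the group mean and SD. In Rag1 to Igll1 the treated mice 1, 2 and 5 sit near 0 and mice 3 and 4 above them, whereas in Il7r, Cd79a and Cd79b the 5 treated mice sit together.

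Cd79a and Cd79b, the signalling chains of the receptor, were lower in each treated mouse, at 15.9% to 24.01% of the vehicle mean for Cd79a and 16.4% to 22.9% for Cd79b. Cd79a (ENSMUSG00000003379, chr7:24897381-24902197) was at 82.8, 93.3, 48.6, 99.6 and 72.8 CPM in vehicle mice 1 to 5 and at 19.1, 18.4, 17.4, 18.0 and 12.6 CPM in treated mice 1 to 5. The highest treated value was thus well under the lowest vehicle value. Cd79a was 4.64-fold lower (95% interval 3.53 to 6.10, log2 fold change -2.22, SE 0.18, adjusted p = 1.8e-06).

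Cd79b (ENSMUSG00000040592, chr11:106311341-106314762) was at 58.2, 75.1, 44.3, 86.2 and 53.5 CPM in vehicle mice and at 14.5, 14.4, 10.4, 13.8 and 13.8 CPM in treated mice. Here too the groups did not overlap, and the treated mice lay closer together than the vehicle mice, with a coefficient of variation of 12.7% against 26.7%. Cd79b was 4.74-fold lower (95% interval 3.65 to 6.16, log2 fold change -2.24, SE 0.17, adjusted p = 1.2e-06). The plasma cell list, whose cells can still make Cd79a, was higher in each treated marrow, with a summed level of 442 to 729 CPM against 283 to 362 CPM (4 of 7 genes called higher and 1, Irf4, called lower), and its part in the Cd79a level was not tested.

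Il7r (ENSMUSG00000003882, chr15:9505788-9530176), the receptor chain for interleukin 7, followed the same uniform pattern with a smaller change. It was at 35.4, 40.7, 23.5, 37.1 and 28.6 CPM in vehicle mice and at 12.4, 11.3, 7.13, 10.9 and 12.0 CPM in treated mice. The groups did not overlap, and treated mouse 3, among the highest for Dntt and Vpreb1, was the lowest for Il7r. Il7r was 3.07-fold lower (95% interval 2.36 to 4.01, log2 fold change -1.62, SE 0.18, adjusted p = 1.7e-05). T cells and innate lymphoid cells also make Il7r. The summed level of 12 T cell genes ranged from 141 to 180 CPM with vehicle and from 152 to 173 CPM with oxaliplatin (1 called lower, Cd4, and 1 called higher, Lat). Cd4 and Lat were its largest terms and moved in opposite directions, from 78.6 to 28.5 CPM and from 29.9 to 69.7 CPM on average. The sum therefore does not show whether T cells changed. Of the 12 genes 10 were not called, among them Cd3e at 5.07 CPM and 6.61 CPM on average (adjusted p = 0.17). The 11 genes of NK and innate lymphoid cells summed to 71.8 to 86.0 CPM with vehicle and 40.1 to 61.6 CPM with oxaliplatin (5 called lower, 1 higher), and their part in the Il7r change was not tested. The largest term of this sum with vehicle was Il1rl1, which went from 39.8 to 14.4 CPM on average. Rora, the gene called higher, went from 8.81 to 18.4 CPM.

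Rag1 (ENSMUSG00000061311, chr2:101638282-101649501), the catalytic chain of the recombinase, was at 55.0, 58.4, 29.5, 69.8 and 38.3 CPM in vehicle mice. In treated mice 1 to 5 it was at 0, 0.219, 14.6, 8.17 and 0.377 CPM, from counts of 0, 7, 628, 367 and 14. Each treated mouse lay below each vehicle mouse, but mice 3 and 4 held nearly all of the treated group's reads. Rag1 was 10.5-fold lower (95% interval 1.93 to 57.4, log2 fold change -3.40, SE 1.09, adjusted p = 0.037). The call was lost when any of vehicle mice 1, 2, 4 or 5 or treated mice 2 or 5 was left out (adjusted p between 0.053 and 0.071), without a filter on low counts (adjusted p = 0.10) and with the replicate number as a block (adjusted p = 0.072). Leaving out treated mouse 3 moved the log2 fold change to -4.44.

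Rag2 (ENSMUSG00000032864, chr2:101624718-101632529), the partner of RAG1 from the neighbouring gene on the opposite strand, was much lower in counts. It was at 4.97, 4.31, 2.84, 5.04 and 3.64 CPM in vehicle mice and at 0.0576, 0, 1.58, 0.935 and 0.0539 CPM in treated mice. Treated mice 1, 2 and 5, with 2, 0 and 2 counts, were under the floor, and mice 3 and 4 were again the highest of the treated group without reaching the vehicle range. Rag2 was 7.58-fold lower (95% interval 2.15 to 26.8, log2 fold change -2.92, SE 0.83, adjusted p = 0.018), and -3.85 on the log2 scale without treated mouse 3. Without a filter on low counts the call was lost (adjusted p = 0.074). B230118H07Rik shares 80 exon bases with Rag1 and 208 with Rag2, and it held 106 to 403 counts in marrow. Whether the counting used strand is not given in the sources used here, and the part of shared reads was not tested.

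Dntt (ENSMUSG00000025014, chr19:41029275-41059525), which encodes terminal deoxynucleotidyl transferase, varied widely among treated mice. Vehicle mice were at 32.2, 28.0, 17.5, 31.2 and 18.8 CPM. Treated mice 1 to 5 were at 0.461, 1.54, 29.0, 14.1 and 1.54 CPM. Mouse 3 was inside the vehicle range and mouse 4 just under it, while mice 1, 2 and 5 were at 1.81% to 6.02% of the vehicle mean. The change did not pass the test (log2 fold change -1.44, SE 0.90, 95% interval -3.44 to 0.56, adjusted p = 0.26). The fold change compares group means, and the group medians were 28.0 CPM with vehicle and 1.54 CPM with oxaliplatin.

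The surrogate light chain genes Vpreb1 and Igll1 showed the same division among treated mice. Vpreb1 (ENSMUSG00000059305, chr16:16868403-16870843) was at 7.66, 9.25, 3.15, 9.66 and 3.93 CPM in vehicle mice and at 0.173, 0, 7.95, 5.21 and 0.270 CPM in treated mice. Igll1 (ENSMUSG00000075370, chr16:16860671-16863985) was at 13.7, 17.5, 6.21, 17.6 and 8.45 CPM in vehicle mice and at 0.0576, 0.157, 11.6, 8.46 and 0.485 CPM in treated mice. For both genes, treated mice 3 and 4 lay within the vehicle range and mice 1, 2 and 5 below it. Neither change passed the test (Vpreb1 log2 fold change -1.29, SE 1.04, adjusted p = 0.38, and Igll1 -1.59, SE 1.04, adjusted p = 0.28). The 95% intervals, -3.59 to 1.01 for Vpreb1 and -3.90 to 0.71 for Igll1, span both a large fall and a rise. Vpreb1 shares 108 exon bases with Top3b on the opposite strand, and the part of shared reads was not tested.

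Vpreb2 (ENSMUSG00000059280, chr16:17980428-17981273), the near copy of Vpreb1, had the lowest counts of the 10 genes in vehicle marrow. It was at 1.39, 0.815, 0.315, 1.91 and 0.650 CPM in vehicle mice and at 0, 0, 0.932, 1.45 and 0 CPM in treated mice. A count of 0 in mice 1, 2 and 5 allows at most 0.0940 CPM in each, counting error only. The change was not called (log2 fold change -1.04, SE 1.04, adjusted p = 0.49).

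Vpreb3 (ENSMUSG00000000903, chr10:75943057-75949657), whose product associates with immunoglobulin chains inside the cell, fell in all treated mice and still kept the division. Vehicle mice were at 20.03, 25.3, 12.95, 24.3 and 13.4 CPM, and treated mice at 0.518, 0.501, 4.94, 4.496 and 0.647 CPM. No treated mouse reached the vehicle range, and mice 3 and 4 were at 25.7% and 23.4% of the vehicle mean, where their Vpreb1 levels were at 118% and 77.4%. Vpreb3 was 8.48-fold lower (95% interval 3.12 to 23.1, log2 fold change -3.08, SE 0.66, adjusted p = 0.0037), with log2 fold changes from -3.59 (without treated mouse 3) to -2.80 (without treated mouse 5).

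Set against the vehicle mean, the 10 genes gave treated mice 1, 2 and 5 medians of 2.19%, 1.92% and 3.92%, with Il7r the highest in each (34.2% to 37.4%). Treated mice 3 and 4 had medians of 33.6% and 28.2%, and their highest values were 118% (Vpreb1) and 142% (Vpreb2). All 10 genes were below each vehicle value in mice 1, 2 and 5, as were 6 genes in mouse 3 and 7 in mouse 4. The share of all genes tested that lay below each vehicle value in 1 given treated mouse was not computed. These counts therefore have no background to be judged against. The treated mice thus differed from each other in the genes of the pro-B and pre-B stages, with Vpreb1 from 0% to 118% of the vehicle mean, and far less in Cd79a, from 15.9% to 24.01%. These mice were not divided into groups for any test, because the division was seen in the measured genes themselves.

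**Figure D2:**
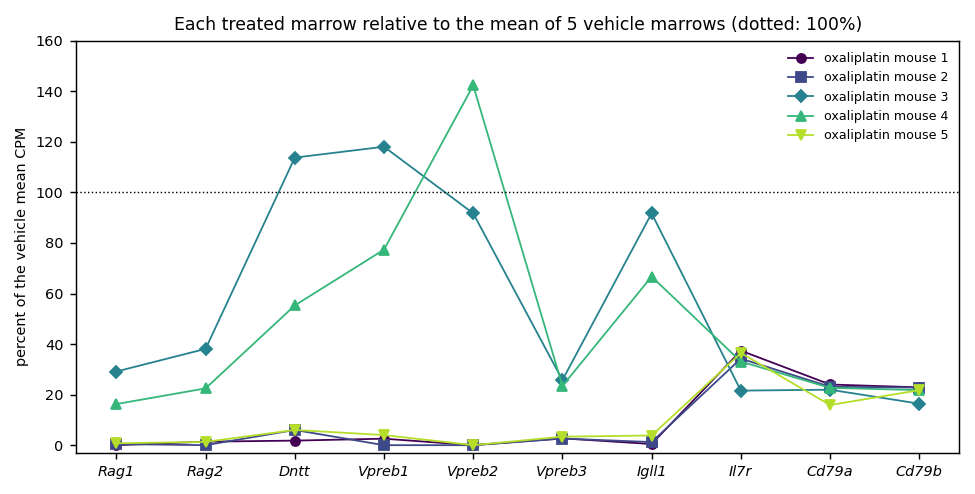
Level of each gene in each treated marrow as a percent of the mean of the 5 vehicle marrows (y axis), with points of 1 mouse joined to follow it across genes. Mice 3 and 4 lie between 16.3% and 142% throughout, and mice 1, 2 and 5 lie at 6.02% or lower up to Igll1 and then meet the others at Il7r, Cd79a and Cd79b.

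**Figure D3:**
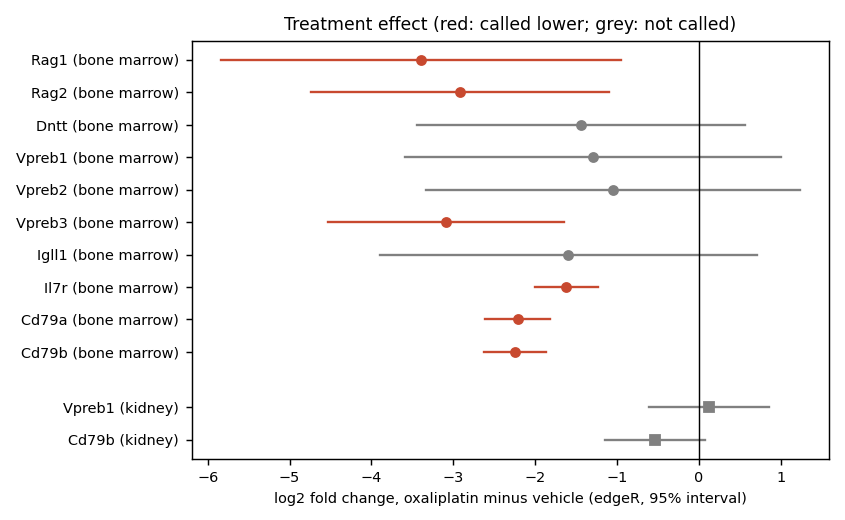
Log2 fold change of oxaliplatin against vehicle (x axis) with its 95% interval from edgeR for the 10 genes in marrow and the 2 tested in kidney. The intervals of Il7r, Cd79a and Cd79b are narrow and well below 0, while those of Dntt, Vpreb1, Vpreb2 and Igll1 cross 0.

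Cd79a is active from the pro-B cell to the mature B cell, so each gene was also taken relative to Cd79a in the same marrow, as a difference of log2 CPM with a prior count of 2. None of the 9 differences passed the exact two-sided permutation test after Benjamini-Hochberg adjustment over the 9, where the smallest p for 5 against 5 mice is 0.0079. The count at an unadjusted permutation p under 0.05 was 1, Il7r, which rose relative to Cd79a by 0.57 in the mean (from -1.25 ± 0.15 to -0.68 ± 0.43, SD, n = 5, exact permutation p = 0.032, adjusted 0.29) and was above each vehicle value in 4 of 5 treated mice. Relative to Cd79a, Dntt was at -1.36 to -1.95 in vehicle mice and at -5.21, -3.53, 0.73, -0.35 and -2.99 in treated mice 1 to 5. Treated mice 3 and 4 thus lay above all vehicle mice and mice 1, 2 and 5 below them, and the mean difference of -0.63 had an exact permutation p of 0.60. The same held for Vpreb1, Vpreb2 and Igll1, with 3 treated mice below and 2 above the vehicle range. Igll1 was at -3.10 to -2.41 in vehicle mice and at -0.58 and -1.09 in treated mice 3 and 4. Rag1 relative to Cd79a was above the vehicle range in mouse 3 and below it in the other treated mice.

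**Figure D4:**
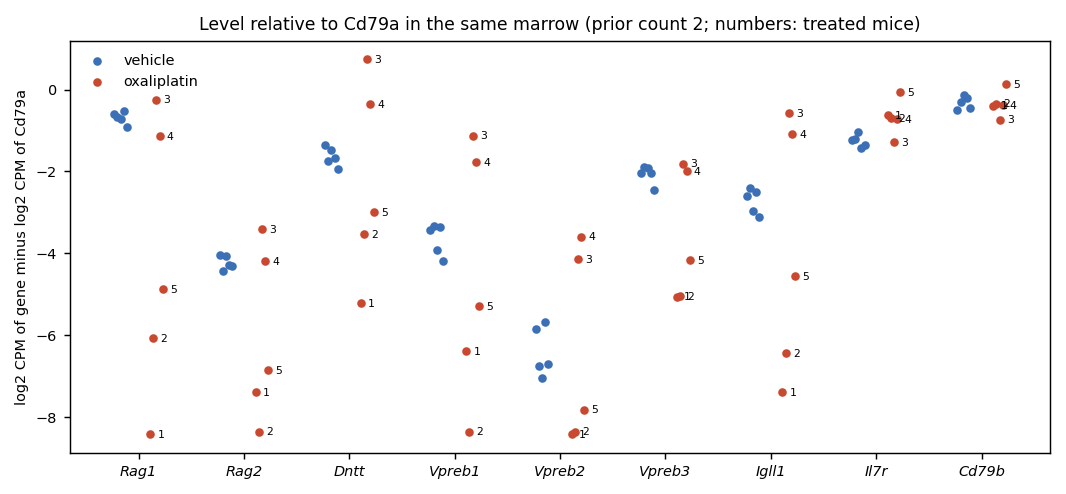
Log2 CPM of each gene minus log2 CPM of Cd79a in the same marrow (y axis) for 5 vehicle and 5 oxaliplatin mice, with treated mice numbered. Treated mice lie on either side of the vehicle mice for Dntt, Vpreb1, Vpreb2 and Igll1, and also for Rag1, Rag2 and Vpreb3. Cd79b has treated mice on either side too, over a far narrower span (-0.74 to 0.13, against -0.51 to -0.13 with vehicle).

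Partners of 1 complex or stage were compared within each marrow in 4 pairs. The difference of Cd79a and Cd79b was 0.32 ± 0.16 with vehicle and 0.35 ± 0.31 with oxaliplatin on the log2 scale (SD, n = 5, exact permutation p = 0.89), a difference smaller than the spread between mice. Igll1 held 1.79 to 2.15 counts per Vpreb1 count in vehicle mice, and 1.46 and 1.62 in treated mice 3 and 4 (Vpreb1 minus Igll1 on the log2 scale, exact permutation p = 0.56). For Vpreb1 minus Dntt the exact permutation p was 0.85. Rag1 minus Rag2 fell from 3.54 ± 0.20 to 1.89 ± 1.70 (SD, n = 5, exact permutation p = 0.0079, adjusted over the 4 pairs 0.032) and was lower in 5 of 5 treated mice. In treated mice 1, 2 and 5 the counts behind this difference were 0 to 14 for Rag1 and 0 to 2 for Rag2, so the added prior count sets it there, and with a prior count of 0.5 the adjusted p of the exact permutation test was 0.635. In the treated mice with enough reads, Rag1 held 9.24 (mouse 3) and 8.74 (mouse 4) counts per Rag2 count, against 10.4 to 13.8 with vehicle.

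Per length of merged exons, the order of levels in vehicle marrow placed the lineage-wide genes first. Cd79a was at 54.5 ± 13.8 and Cd79b at 44.4 ± 11.8 CPM per kb (SD, n = 5), and their ranges overlapped. Vpreb3 followed at 22.3 ± 6.81 CPM per kb, with its range apart from those of its neighbours in the order. Next came Dntt (11.1 ± 3.03), Rag1 (7.60 ± 2.45), Il7r (7.09 ± 1.48), Igll1 (5.86 ± 2.40) and Vpreb1 (5.61 ± 2.52 CPM per kb). Within this run each overlapped the one after it, and the range of Vpreb1 was apart from that of Vpreb2. Vpreb2 (1.34 ± 0.835) and Rag2 (1.21 ± 0.273 CPM per kb) were last and overlapped. After oxaliplatin Cd79a (11.7 ± 1.77) and Cd79b (9.36 ± 1.19 CPM per kb) were still first by mean, and each range overlapped the next in the order.

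The pathway genes around the 10 were described from lists, by counts beside the backgrounds above and with no test of a list. Of 15 transcription factors of the B lineage, 12 were called lower and 0 higher, with a median log2 fold change of -0.86 against -0.04 for all genes tested. Spib, a factor of B cells and plasmacytoid dendritic cells, fell by 3.53 on the log2 scale (adjusted p = 4.9e-08), Pax5, which holds cells to the B lineage, fell by 2.82 (adjusted p = 1.9e-06) and Ikzf3 fell by 1.95 (adjusted p = 1.2e-05). Ebf1, the factor that opens the B program, was at 116, 111, 67.4, 88.9 and 94.2 CPM with vehicle and at 52.6, 39.4, 45.5, 63.7 and 36.3 CPM with oxaliplatin (log2 fold change -1.01, adjusted p = 5.5e-04). Pax5 in treated mice 3 and 4 was at 21.02 and 21.9 CPM, above the 11.5 to 14.02 CPM of treated mice 1, 2 and 5 and below the lowest vehicle value of 76.6 CPM. Erg changed least (log2 fold change 0.04, adjusted p = 0.81). The plasmacytoid dendritic cell list, 10 genes, summed to 543 to 607 CPM with vehicle and 425 to 492.5 CPM with oxaliplatin (5 called lower, 0 higher). Its largest term was Ly6c2, not called, at 328 and 269 CPM on average, while Siglech went from 31.4 to 4.44 CPM. In kidney the list summed to 995 to 1786 CPM, so the sum does not mark these cells alone.

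Among 14 genes of pre-B receptor signalling, 5 were called lower and 0 higher (median log2 fold change -0.38), and 1 was called higher with library size alone as the scale and with DESeq2. Bach2, a repressor that acts at the pre-B checkpoint, fell by 2.91 and Blk, a kinase of the receptor, fell by 2.65 on the log2 scale (adjusted p = 1.2e-07 and 1.5e-06). Vav1, shared by many blood cells, changed least (log2 fold change -0.04, adjusted p = 0.80).

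In the interleukin 7 pathway, 5 of 12 genes were called higher and 0 lower (median log2 fold change 0.37), the opposite direction to Il7r. Il7 itself was at 2.12, 3.11, 1.61, 3.31 and 1.20 CPM in vehicle mice and at 8.81, 8.09, 8.32, 12.5 and 4.02 CPM in treated mice, with no overlap (log2 fold change 1.87, SE 0.33, adjusted p = 6.5e-04). Cish and Socs2, feedback inhibitors of cytokine receptors that also answer erythropoietin and other cytokines, rose by 2.53 and 2.24, and Mycn rose by 1.94 on the log2 scale (adjusted p = 1.7e-07, 1.1e-06 and 2.0e-05). Il2rg, the chain that pairs with the Il7r product, was at 15.8 to 17.3 CPM with vehicle and 13.7 to 19.4 CPM with oxaliplatin (log2 fold change -0.05, adjusted p = 0.80).

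**Figure D5:**
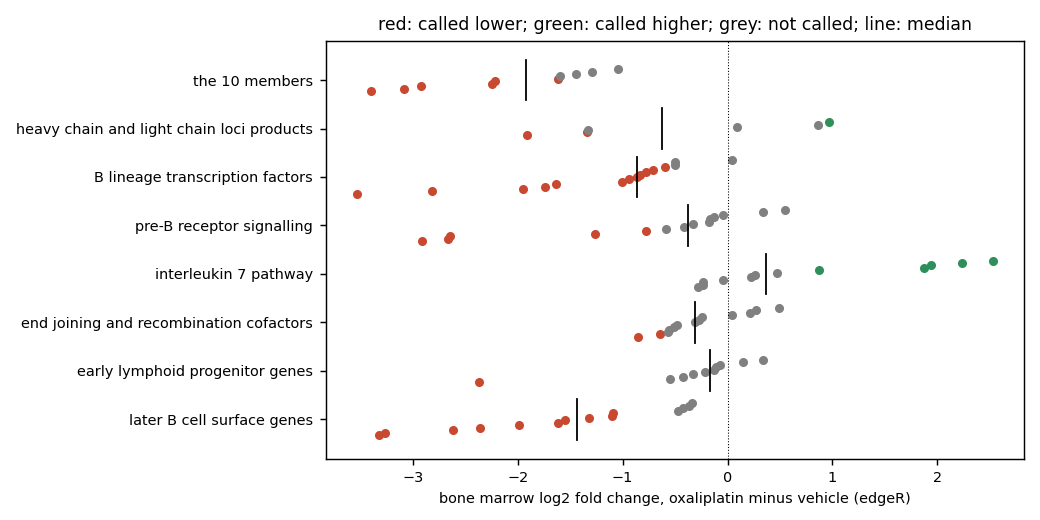
Bone marrow log2 fold change of each tested gene (x axis), by list, with the list's median as a line and colours for genes called lower or higher. B lineage transcription factors and later B cell surface genes lie mostly below 0, while the called genes of the interleukin 7 pathway lie above 0.

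The general machinery of end joining moved less than Rag1 and Rag2, while Dntt was not called (log2 fold change -1.44, adjusted p = 0.26 in edgeR). Bulk marrow does not show the level of the end joining genes in B cells alone. Of 13 genes, 2 were called lower and 0 higher (median log2 fold change -0.31). The 2 were Polm, a polymerase of joining related to the Dntt product, which fell by 0.86, and the ligase gene Lig4, which fell by 0.64 on the log2 scale (adjusted p = 0.0036 and 0.014). Paxx, a scaffold of joining, changed least (0.04, adjusted p = 0.89). With library size alone as the scale, 1 gene of the list was called lower and 1 higher.

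Among 10 genes of early lymphoid progenitors, 1 was called lower and 0 higher (median log2 fold change -0.17). That gene was Ly6d, a surface mark of progenitors committed to the B lineage and of B cells, which fell by 2.37 on the log2 scale (adjusted p = 9.2e-08), and Runx1 changed least (-0.07, adjusted p = 0.64). Ly6d was at 26.2 to 38.1 CPM with vehicle and 5.39 to 6.71 CPM with oxaliplatin, with treated mice 3 and 4 at 6.29 and 6.54 CPM, unlike Dntt and Vpreb1 in the same mice.

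Later B cell surface genes were called lower in 10 of 14 cases and higher in 0 (median log2 fold change -1.44). Fcrla fell by 3.32, Cd72 by 3.26 and Ms4a1, the gene of CD20, fell by 2.62 on the log2 scale (adjusted p = 4.3e-07, 4.6e-07 and 9.8e-06), and Cd55 changed least (-0.34, adjusted p = 0.030, short of 1.5-fold). Ms4a1 was at 18.1 to 38.1 CPM with vehicle and at 6.63, 5.77, 2.61, 4.43 and 5.50 CPM in treated mice, so mouse 3 was the lowest here.

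Of 6 immunoglobulin constant region genes, 2 were called lower and 1 higher. Ighm, the heavy chain that joins the pre-B receptor, fell by 1.34 (443 to 706 CPM with vehicle and 191 to 292 CPM with oxaliplatin, adjusted p = 4.1e-05) and Ighd, a chain of mature B cells, fell by 1.92 on the log2 scale (adjusted p = 9.8e-04). Igkc, a light chain that plasma cells make in quantity, rose by 0.97 (adjusted p = 0.0020), beside the higher plasma cell list given above. Iglc2 changed least (0.09, adjusted p = 0.85).

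Other lists that moved with treatment were the erythroid list (7 of 8 genes called lower, summed level 22891 to 40428 CPM with vehicle and 2926 to 7487 CPM with oxaliplatin) and the proliferation list (9 of 10 called lower, 5255 to 6671 CPM and 2036 to 3712 CPM). Of the 10 neutrophil genes 0 were called. Treated mouse 3 had the highest proliferation sum of the treated group. The part of these in the levels of the 10 genes was not tested.

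The genes whose level varied most like the mean of the 10 were sought over the 10 marrow libraries, on log2 CPM with group means subtracted. This mean followed 7 of the 10, whose own r with it was 0.963 to 0.993, and not Cd79a (r = 0.279), Cd79b (-0.0953) or Il7r (-0.326). In the vehicle mice alone these 3 did follow it (r = 0.960, 0.925 and 0.956), so the split lay in the treated mice. Each of the 10 genes is part of the mean, which raises its own r. The 5 nearest were Strbp (r = 0.962), Slc38a1 (0.958), Zmynd15 (0.953), 4930503L19Rik (0.952) and Ankrd26 (0.952). Points within each treatment share depth and scaling, and the treated mice fall apart as described. Without treated mice 3 and 4, the libraries farthest from the median, r over 8 libraries was 0.935 for Strbp and 0.899 for Slc38a1 but 0.593 for Zmynd15, 0.371 for 4930503L19Rik and 0.553 for Ankrd26. The likeness of the last 3 was thus weaker without those libraries. They were picked on this same mean, so a lower r without them is likely for any gene. The 7 genes that followed the mean were then at 0.643 (Rag2) to 0.928 (Vpreb3). Strbp was at 69.5 to 81.8 CPM with vehicle and at 31.5, 32.6, 50.4, 42.9 and 35.2 CPM in treated mice 1 to 5. Mice 3 and 4 were the highest of the treated group, which follows from the choice of Strbp by this pattern.

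In kidney, an organ where B cells are not made, the same comparison was run on far lower counts. Rag1 had 0 counts in all 10 kidneys, Rag2 and Dntt at most 4 and 2 counts, Vpreb2 and Igll1 at most 4 each, Vpreb3 at most 8, Il7r at most 12 and Cd79a 0 to 29. These 8 genes did not have enough counts to be tested. Cd79b and Vpreb1 were tested in edgeR and 0 of the 2 were called, with 0 at an unadjusted p under 0.05 and 0 called by DESeq2, beside 11.5% of the 19293 genes tested in kidney.

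Cd79b in kidney was at 0.970, 0.838, 0.778, 0.805 and 0.769 CPM with vehicle and at 0.718, 0.370, 0.719, 0.596 and 0.480 CPM with oxaliplatin. The groups did not overlap, but the change was not called (log2 fold change -0.53, SE 0.29, adjusted p = 0.18). Vpreb1 was at 0.432 to 1.33 CPM with vehicle and 0.561 to 1.40 CPM with oxaliplatin (log2 fold change 0.12, SE 0.35, adjusted p = 0.82), the groups overlapped, and Top3b, which overlaps it, held 1601 to 2716 counts in kidney. Cd79a, left out by the filter, had 4 to 29 counts with vehicle and 0 to 10 with oxaliplatin. In edgeR it was tested and called when vehicle mouse 3 (log2 fold change -1.97, adjusted p = 0.029) or treated mouse 3 (-2.07, adjusted p = 0.037) was left out. Without the filter it was called too (-1.73, adjusted p = 0.018). It was tested and not called when treated mouse 1, 2, 4 or 5 was left out (adjusted p between 0.052 and 0.0999).

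The difference of the treatment effect between tissues was tested for the 10 genes by the interaction term in edgeR over 20 libraries. The fit had no term for the animal and took the libraries as independent. It was called for Cd79b, 1 of 10, beside 23.7% of the 24321 genes tested. The fall of Cd79b was smaller in kidney by 1.65 on the log2 scale (SE 0.28, 95% interval 1.07 to 2.22, adjusted p = 1.0e-04). For Vpreb1 the difference was 1.31 (SE 1.23, adjusted p = 0.46). For Cd79a, at 0.654 ± 0.354 CPM in vehicle kidney and 0.198 ± 0.170 CPM in treated kidney (SD, n = 5), it was 0.38 (SE 0.65, 95% interval -0.98 to 1.73, adjusted p = 0.71). The other 7 genes had at most 12 counts in any kidney, and for Rag1, at 0 there, the term could not be estimated.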

How the data were processed

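Total RNA of marrow and kidney was sequenced in 5 vehicle and 5 oxaliplatin libraries per tissue. The deposited values are raw counts per gene, whole numbers that the authors did not normalize. The study's methods describe alignment with STAR to Ensembl release 101 and counting in Partek Flow, while the submitters' processing notes list STAR 2.7.9a, featureCounts and Salmon. Library preparation is likewise described in different ways in the methods and the labels, and the strand setting is not given in the sources used here.

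Groups were taken from the labels. Of 55774 lines per table, 1 with a missing count and 287 with a repeated identifier were left out, so 55486 genes remained. Each tissue was filtered with filterByExpr (minimum count 10), scaled by TMM and fitted with edgeR 4.0.16 (quasi-likelihood test, R 4.3.3), with p-values adjusted over all genes tested. A call needed a change beyond 1.5-fold with an adjusted p under 0.05. The interaction was fitted over 20 libraries and called by the same rule. Ratios were tested by exact permutation over mice (252 divisions, SciPy 1.17.1). The fit was tested on simulated data first. Coordinates are GRCm38 from GENCODE M21. Where nothing says that libraries came from separate animals, p-values measure only the spread between these libraries. Floors on counts cover counting error only. Intervals of fold changes and of the interaction come from the edgeR fits, and they include the spread between libraries.

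All 10 genes were named, and in each pathway list the 3 called genes with the largest change and the gene with the smallest. Il7, Il2rg, Ebf1, Pax5, Ighm, Ms4a1, Cd3e and the 5 genes of the closest pattern were also named, and 1 gene that these rules name is not reported here. The members and lists were chosen with earlier results of these data known. Alternatives were other scalings (median ratio factors, library size, hemoglobin genes left out), DESeq2 1.42.0, other count filters, the summed Y-linked level as a covariate, a block of replicate number, other fold thresholds, another prior count and leaving out each library.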

Additional observations from a re-analysis of the deposited data

Results flagged for a closer look

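Among the 24 groups of 5 libraries examined for a value far from the others, 3 held one, and chance gives about 1 in 20 groups. Il7r in the marrow of treated mouse 3 was at 7.13 CPM, under the 10.9 to 12.4 CPM of the other treated mice. Cd79b in the same mouse was at 10.4 CPM, under the 13.8 to 14.5 CPM of the others. Cd79a was low in treated mouse 5, at 12.6 CPM against 17.4 to 19.1 CPM.

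The treatment effect on Cd79b differed between tissues, being less negative in kidney by 1.65 on the log2 scale in the edgeR interaction test (adjusted p = 1.0e-04). Cd79b was lower in treated than in vehicle libraries in both tissues.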

How the results depend on the processing

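Of 739 alternative values, 662 were classed as the same as the main result. For a fold change, interaction or ratio, this meant the same direction and the same side of the threshold. For a count of called genes it meant only a number near the main one. The marrow count of 4 in place of 6 was therefore among the 662, although calls were lost. The 6 genes called lower in marrow became 4 without a filter on low counts (Rag1 and Rag2 lost), 5 with the replicate block (Rag1 lost) and 4 with at least 10 counts required in every library (which removed Rag1 and Rag2), and 5 to 6 when single libraries were left out, while Vpreb3, Il7r, Cd79a and Cd79b were called in each of these. Replicate numbers did not pair the libraries (same-number correlations in marrow -0.118 to 0.228), so the block result says nothing of pairing. Called genes in kidney went from 0 to 1 without a filter, and ranged from 0 to 1 with a library left out, the 1 being Cd79a. The interaction count of 1 became 2 with median ratio factors, 2 with the replicate block across tissues and 3 with DESeq2, and ranged from 1 to 3 with a library left out (3 without treated marrow 3). Stage pairs went from 1 to 0 with a prior count of 0.5 and ranged from 0 to 2 with a library left out, where the exact test has fewer divisions. By Spearman's rho, 5 of the 10 nearest genes were shared.

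With a library left out, these changed sign: Vpreb1 in kidney (-0.12 to 0.40), and in marrow the log2 ratios to Cd79a of Dntt (-1.38 to 0.10), Vpreb1 (-1.80 to 0.0018), Vpreb2 (-0.79 to 0.42) and Cd79b (-0.143 to 0.074), Cd79a to Cd79b (-0.074 to 0.143), Vpreb1 to Igll1 (-0.040 to 0.692) and Vpreb1 to Dntt (-0.59 to 0.32). Of these, Vpreb1 to Igll1 passed the exact permutation test without treated mouse 2 (0.692, adjusted p = 0.032), which held 0 Vpreb1 counts, and the others passed it in no case. The cause was not tested. Scaling by library size alone moved the median log2 fold change of all genes from -0.04 to 0.11 in marrow and from 0.02 to 0.16 in kidney, and higher calls as a share of all calls from 49.6% to 63.4% and from 66.8% to 82.7%.

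Depth limits Rag2 and Vpreb2 in treated marrow, and Rag1, Vpreb1 and Igll1 in treated marrows 1, 2 and 5 (0 to 18 counts). It also limits 8 of the 10 genes in kidney, where 3 counts equal 0.0900 to 0.1296 CPM.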
